A study of Rattus norvegicus with 6 samples.

Results

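Rnase4, Ang and Rnh1 encode ribonuclease 4, angiogenin and the ribonuclease inhibitor. They were read by 4 of the 31042 probe sets tested on Affymetrix rat genome arrays, 2 for Rnase4 and 1 each for Ang and Rnh1. A probe set is a group of short probes along a transcript, and a member was every probe set that carried one of these symbols and no other in the platform annotation. The genes were taken up because Rnase4 was already known to differ between the groups in these data, so the SNI minus control values of the members are given as a description, with no test. The arrays measured RNA of the prelimbic cortex (PL), a part of the medial prefrontal cortex, of young male rats (strain Sprague Dawley), taken 14 days after the operation. In the 3 samples of the SNI group (spared nerve injury, a model of neuropathic pain) the tibial and common peroneal branches of the left sciatic nerve had been cut and the sural branch left whole. The 3 samples of the control group came from sham surgery, in which the same nerves were laid open and left uncut. The PL was taken from the side opposite the injury, and the labels name no genotype or agent beyond isoflurane anesthesia (pentobarbital in the study's methods). The sources do not say whether each sample was a separate rat, so the spread behind errors and p-values may be technical and is only that of these samples.

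Ribonuclease 4 and angiogenin are small secreted enzymes of the pancreatic-type ribonuclease A family. Ribonuclease 4 cuts RNA after uridine. Angiogenin is a weak ribonuclease that promotes the growth of blood vessels; it enters cells, stimulates ribosomal RNA transcription in the nucleus and, under stress, cuts tRNAs in the anticodon loop. The ribonuclease inhibitor is a cytosolic protein of leucine-rich repeats that binds enzymes of this family very tightly and keeps them inactive. Rnase4 and Ang lie side by side in the family's gene cluster, and in mammals their transcripts start from common promoters and differ in the coding exon that is spliced in.

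The start regions of both genes are shown because they are what Rnase4 and Ang share and where they part. In RefSeq on build GRCr8, the first start of Ang and the only start listed for Rnase4 lie 54 bases apart on the plus strand of chromosome 15. The 250 bases before the first Ang start (chr15:26785983-26786232) are printed with the 196 bases that also lie in the 250 bases before the Rnase4 start in capitals. The word shared in the label refers to these capitals alone, not to the start itself. The second sequence precedes another Ang start, 5007 bases further on (chr15:26790990-26791239), with the letters TATAA in capitals.
First Ang start, shared with Rnase4: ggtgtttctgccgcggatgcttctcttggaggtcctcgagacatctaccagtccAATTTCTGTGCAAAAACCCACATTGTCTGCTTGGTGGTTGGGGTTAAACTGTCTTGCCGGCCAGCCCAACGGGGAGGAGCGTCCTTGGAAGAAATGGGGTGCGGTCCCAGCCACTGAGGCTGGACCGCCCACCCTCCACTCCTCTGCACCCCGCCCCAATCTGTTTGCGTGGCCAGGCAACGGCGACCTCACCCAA
Second Ang start: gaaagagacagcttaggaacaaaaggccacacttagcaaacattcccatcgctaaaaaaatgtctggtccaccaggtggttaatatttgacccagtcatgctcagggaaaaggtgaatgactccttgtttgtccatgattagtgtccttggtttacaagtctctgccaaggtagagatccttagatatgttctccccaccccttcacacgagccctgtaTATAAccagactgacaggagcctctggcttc
The first window held no TATAA on either strand, while TATAA stood 31 bases before the second Ang start. Over the same 250 bases of all 33465 start regions of the table, 24% held TATAA on at least 1 strand. The shared part held the letters GGGCGG, read on the minus strand, at 72 and 46 bases before the first Ang start, and the second Ang window held none, against 30.5% of all start regions with a match on at least 1 strand. CCAAT stood 41 bases before the first Ang start on the plus strand and overlapped no GGGCGG match by more than 1 base, and another match lay at 198 bases, while 34% of all start regions held at least 1. Neither the AP-1 letters TGACTCA (4.05% of all start regions) nor GCGNGGGCG, letters bound by Egr factors (4.29%), were found on either strand of the Ang and Rnase4 windows. The matches are of letters alone.

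The deposited values are on a log2 scale and each probe set is centred on the median of its 6 values. Differences between samples can be read from them, but not the level of an mRNA, so levels of Rnase4, Ang and Rnh1 cannot be set against each other and the markers of the tissue could not be checked for presence. Controls varied more, with an SD of 0.107 for the median probe set against 0.067 among SNI samples. Control samples 1 and 3 lay away from the other samples on principal component 1, which took 35.8% of the variance. The hybridization controls, bacterial and phage transcripts meant to be added equally to all samples, differed with the groups. Their mean over 18 probe sets lay between 0.054 and 0.19 in the SNI samples and between −0.22 and −0.047 in the control samples. That mean was therefore added to the fit as a covariate, and the counts and main values it moved are given with it. Because the covariate itself separates the groups, SEs are wider with it and the differences are less certain. A call lost with it need not mean a smaller difference. Other array controls differed as well. The GAPDH controls (SNI minus control) were at −0.16 for the 3' part, −0.23 for the middle and −0.23 for the 5' part, without overlap of the groups. The poly-A controls were at 0.23 and the beta-actin 3' control at −0.064, both with overlap. The part of these controls in the results was not tested.

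Rnase4 was higher in every SNI sample than in every control sample on both of its probe sets. On probe set 1371475_at the SNI samples 1, 2 and 3 were at 0.50, 0.40 and 0.57, and the control samples 1, 2 and 3 at −0.40, −0.54 and −0.83. On probe set 1368943_at the SNI samples were at 0.40, 0.30 and 0.49, and the control samples at −0.30, −0.35 and −0.69. Both probe sets put the 6 samples in the same order, from SNI sample 3 at the top to control sample 3 at the bottom. The log2 difference was 1.08 (SE 0.11) on the first and 0.85 (SE 0.11) on the second, or a linear fold of 2.12 and of 1.80. Averaged over the 2 probe sets, the SNI samples had a mean of 0.45 ± 0.091 (SD, n = 3) and the controls one of −0.52 ± 0.21 (SD, n = 3), 0.96 apart (SE 0.11), or a linear fold of 1.95. These values belong to the contrast that brought Rnase4 in. The groups did not overlap for 19.6% of all probe sets, 8.35% with SNI higher and 11.2% with SNI lower, and both Rnase4 probe sets were among the 8.35%. At an unadjusted p under 0.05 limma called 13.1% of all probe sets, and at an adjusted p under 0.05 it called 0.0322%. In tissue RNA, more cells that make an mRNA cannot be told apart from more mRNA per cell.

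Ang, read by probe set 1390326_at, was at 0.22, −0.044 and 0.23 in SNI samples 1, 2 and 3 and at −0.20, 0.044 and −0.12 in control samples 1, 2 and 3. The groups overlapped, because SNI sample 2 lay under control sample 2, and those 2 samples are the middle of the 6. The means were 0.14 ± 0.16 (SD, n = 3) and −0.092 ± 0.12 (SD, n = 3), a log2 difference of 0.23 (SE 0.098) or a linear fold of 1.17. SNI sample 2 was the lowest of its group for Ang and for both Rnase4 probe sets. Among the control samples the order of Ang was not that of Rnase4, since control sample 1 was the lowest for Ang and the highest for Rnase4.

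Rnh1, read by probe set 1370880_at, was at −0.049, 0.13 and −0.044 in the SNI samples and at 0.14, −0.044 and 0.044 in the control samples. The samples of the 2 groups lay among each other. The means were 0.012 ± 0.10 (SD, n = 3) and 0.047 ± 0.092 (SD, n = 3), and the difference of −0.035 (SE 0.079) was smaller than the SD of either group. SNI sample 2, the lowest of its group for Rnase4 and Ang, was the highest for Rnh1.

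**Figure D1:**
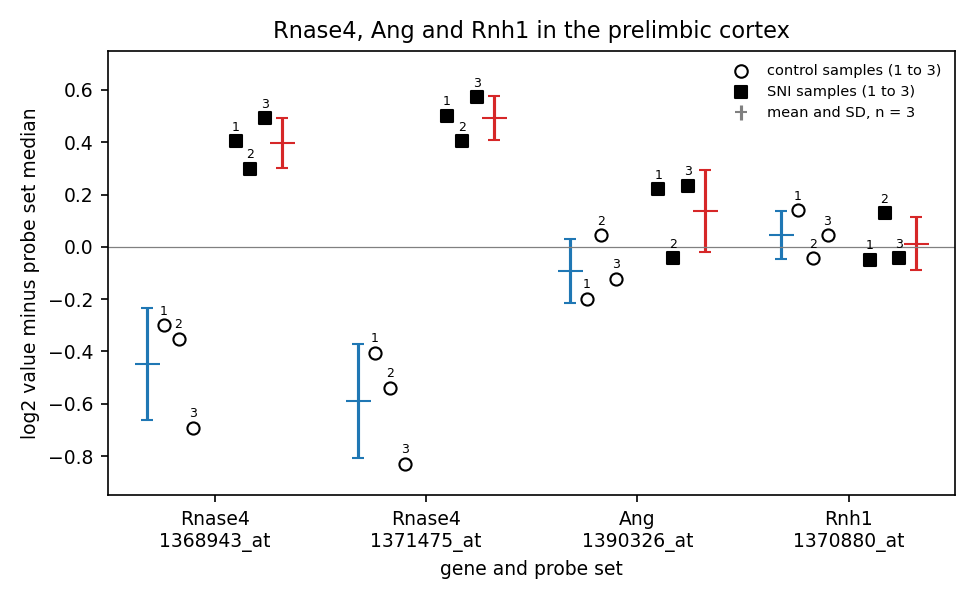
Log2 values relative to the probe set's median of all 6 samples (y axis), sample by sample, for the 4 probe sets of Rnase4, Ang and Rnh1 (x axis). Open circles are control samples and filled squares SNI samples, numbered 1 to 3, and the bars are the mean and SD of each group (n = 3). For both Rnase4 probe sets the SNI samples run from 0.30 to 0.57 and the controls from −0.83 to −0.30, while the groups overlap for Ang and Rnh1.

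The members were also set against each other within each sample, where a factor common to all probe sets of an array drops out. Rnase4 minus Ang, the pair whose starts share the 196 bases in capitals, was 0.23, 0.40 and 0.30 in the SNI samples and −0.15, −0.49 and −0.64 in the control samples. The groups did not overlap, and their means differed by 0.73. In each SNI sample the centred Rnase4 value was above the centred Ang value, and in each control sample below it. Each probe set is centred on its own median, so this sign does not tell which mRNA was the more abundant. Rnase4 minus Rnh1 was 0.50, 0.22 and 0.58 in the SNI samples and −0.49, −0.40 and −0.80 in the control samples, and its means lay 0.999 apart. Ang minus Rnh1 overlapped between the groups, with −0.17 in SNI sample 2 and 0.088 in control sample 2, and its means differed by 0.26. The 2 probe sets of Rnase4 lay apart by 0.080 to 0.19 in a sample, with 1371475_at the further from 0 in each of the 6. All of these hold the Rnase4 contrast itself and are descriptions.

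**Figure D2:**
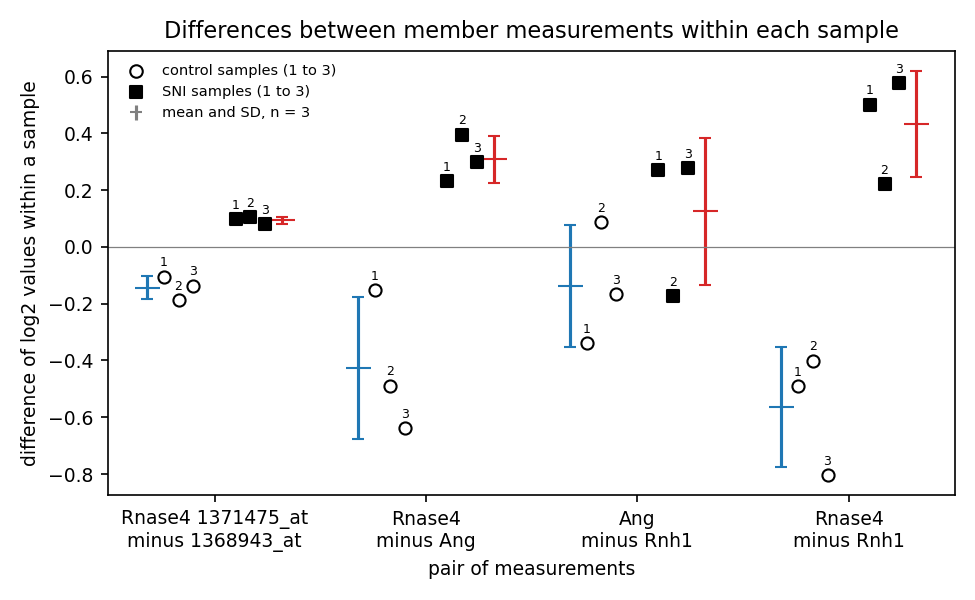
Difference between pairs of log2 values within each sample (y axis) for the 2 Rnase4 probe sets and for the pairs of genes (x axis). Open circles are control samples, filled squares SNI samples, numbered 1 to 3, and the bars are the mean and SD of each group (n = 3). Rnase4 minus Ang lies between 0.23 and 0.40 in the SNI samples and between −0.64 and −0.15 in the control samples.

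Among the 31042 probe sets, 11 had a larger SNI minus control difference than Rnase4 on 1371475_at and 29 a larger one than Rnase4 on 1368943_at. The 29 include the other Rnase4 probe set. For Ang 1288 probe sets, or 4.15%, had a larger difference. For Rnh1 this share was 61.9%. Among the 14217 genes, 5 had a larger difference than Rnase4 and 260 a larger one than Ang. The places of Rnase4 are a description only, since this contrast brought it in. The spread within the groups also differed between the members. The SD pooled over the groups was 0.17 on 1368943_at and 0.16 on 1371475_at, and 85.2% and 84.9% of all probe sets had a smaller one. It was 0.14 for Ang, with 76.4% of probe sets below it, and 0.097 for Rnh1, with 48.7%. On both Rnase4 probe sets the control samples spread more than the SNI samples (SD of 0.21 and 0.22 against 0.097 and 0.084), as for 70.1% of all probe sets.

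**Figure D3:**
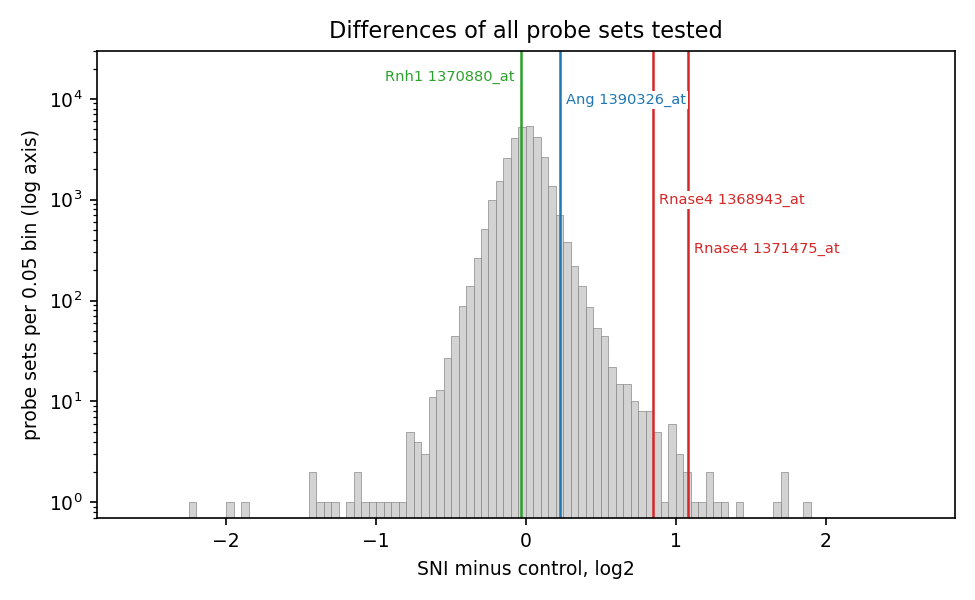
Number of probe sets (y axis, log scale) by SNI minus control difference on the log2 scale (x axis, bins of 0.05) for all 31042 probe sets tested. The coloured lines mark the members: both Rnase4 probe sets, at 0.85 and 1.08, lie in the thin right tail, Ang at 0.23 on the right shoulder and Rnh1 at −0.035 near the centre.

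With the mean of the hybridization controls as a covariate, the difference of Rnase4 was 0.62 (SE 0.21), that of Ang 0.23 (SE 0.22) and that of Rnh1 −0.071 (SE 0.17). Leaving out 1 sample at a time, the difference of Rnase4 lay between 0.84, without control sample 3, and 1.05, without control sample 1. That of Ang lay between 0.18, without control sample 1, and 0.32, without SNI sample 2, and that of Rnh1 between −0.093, without SNI sample 2, and 0.012, without control sample 1. The part of the hybridization controls in the Rnase4 difference was not tested.

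**Figure D4:**
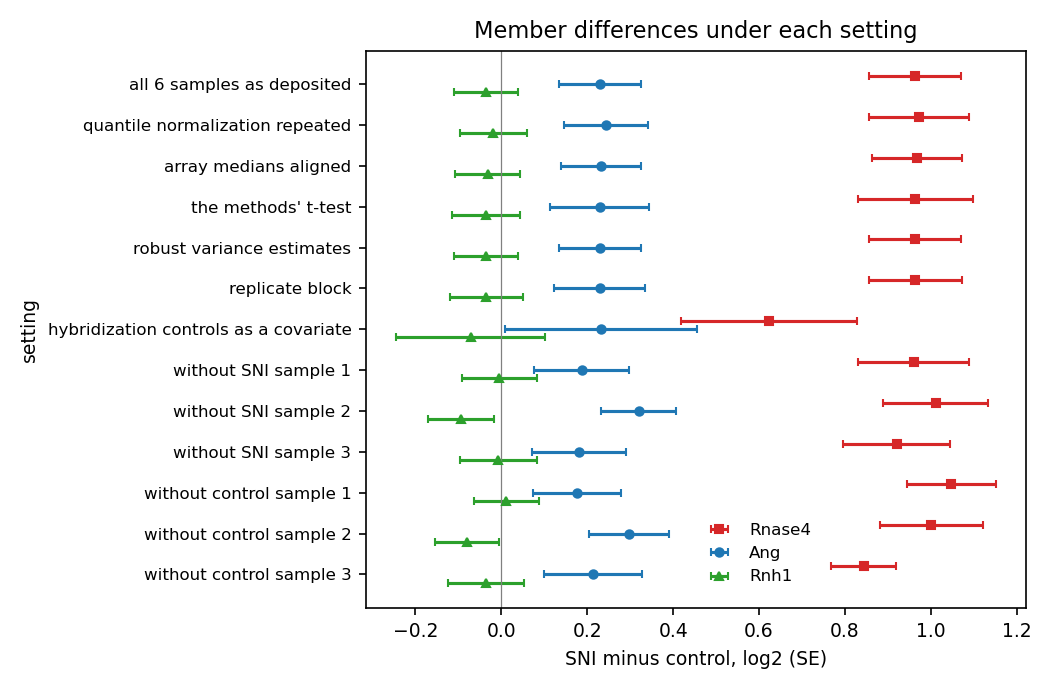
SNI minus control difference of Rnase4, Ang and Rnh1 on the log2 scale, with its SE (x axis), as deposited and under each alternative that applies to all 3 genes (y axis). Rnase4 is the mean of its 2 probe sets. Rnase4 is at 0.62 with the covariate and between 0.84 and 1.05 in the other fits plotted, and Rnh1 stays within 0.1 of 0.

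The probe sets with 1 symbol whose values were most like those of Rnase4 (the mean of its 2 probe sets) were sought by Pearson correlation over the 6 samples. They were Vamp3 (r = 0.996), a vesicle fusion protein, Akap8l (r = 0.992), Abcc1 (r = 0.992), an export pump, Tbkbp1 (r = 0.992) and Appl2 (r = 0.991), an endosomal adaptor. All 5 had every SNI sample above every control sample, with log2 differences between 0.16 and 0.28, well under that of Rnase4. Akap8l has 3 probe sets and Tbkbp1 2. Of 20824 probe sets, 87 had an r over 0.95, and the samples share the group difference, so these r largely describe it. After each group was centred on its own mean, the most similar were Rab11fip5 (r = 0.999), Sec16a (r = 0.998), Mycbp2 (r = 0.998), Itm2b (r = 0.997) and Ccdc91 (r = 0.997). Of these, 4 overlapped between the groups and Itm2b was lower in every SNI sample, by 0.077. With so few samples, 191 probe sets had an r over 0.95 there.

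For the genes around the members, all probe sets of a gene with 1 symbol were averaged, which gave 14217 genes, and limma compared SNI with control in a two-sided test. No gene passed an adjusted p of 0.05 over all genes by limma or by the methods' t-test. At an unadjusted p under 0.05, limma called 3.96% of all genes higher and 9.19% lower in the SNI group (1870 genes or 13.2% in all, 1787 by the methods' t-test), and the median difference of all genes was −0.011. The groups did not overlap for 20.1% of genes, 6.39% higher and 13.7% lower. The counts below are at this unadjusted threshold and are read against those shares. The genes chosen by the naming rule (the smallest p of each list and 5 set genes) included 27 past it. With the hybridization controls as a covariate 4 of these 27 stayed past it, Adat3, Taldo1, Hbb and Alas2, and 23 did not. Some of the lost calls kept their difference with a wider SE, and others did not. Sdc4 was at 0.16 (SE 0.069) without the covariate and 0.17 (SE 0.16) with it. Osgep was at 0.48 (SE 0.12) without it and 0.075 (SE 0.22) with it. With each sample left out in turn 19 of the 27 stayed past the threshold, and the others were Sdc4, Caprin1, Matr3, Cimap1a, Aldoc, Ntsr2, Slco1a4 and Alas2. Further genes named below were chosen after their values were seen and were not recomputed one by one.

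Other enzymes of the ribonuclease A family were little seen. Of 15 further family genes, 3 were read by a probe set of their own and none passed. Rnase6, an antimicrobial ribonuclease of monocytes, was at 0.045, 0.12 and −0.013 in the SNI samples and −0.019, 0.013 and −0.047 in the control samples, a difference of 0.070 (95% confidence interval −0.063 to 0.20, limma adjusted p = 0.655). Rnase1l2 differed by −0.017 (−0.22 to 0.19) and Rnase12 by 0.017 (−0.20 to 0.24), with overlapping groups for all 3. A probe set shared by Rnase3 and a gene of its cluster was left out.

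Of 66 ribonucleases outside the family, 59 were measured, with 2 higher (3.39%) and 10 lower (16.9%), and a median difference of −0.041. The 2 higher ones were Rexo4, an exonuclease homolog, by 1.03 (SE 0.15, limma adjusted p = 0.127), which the study had selected on these samples, and Rnaset2, a lysosomal ribonuclease of another family, by 0.25 (adjusted p = 0.229). Rexo4 was at 0.96, 0.31 and 0.71 in the SNI samples and between −0.46 and −0.31 in the control samples. Among the lower ones was Cnot8, a subunit of the complex that shortens poly(A) tails, at −0.34 (SE 0.057, adjusted p = 0.143). Adding the hybridization control mean to the fit left 0 higher and 3 lower, with Rexo4 at 0.76 (SE 0.33) and Cnot8 at −0.26 (SE 0.13). Without control sample 2 there were 5 and 16.

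Among the listed cell surface proteins that bind angiogenin, only Sdc4 passed the unadjusted threshold. Plxnb2, plexin B2, a receptor of angiogenin, was at 0.037, −0.011 and 0.037 in the SNI samples and −0.10, 0.011 and −0.15 in the control samples, a log2 difference of 0.10 (95% confidence interval −0.037 to 0.24, limma adjusted p = 0.518) with overlapping groups. Sdc4, syndecan 4, was at 0.0077, 0.13 and 0.096 in the SNI samples and −0.049, −0.0077 and −0.20 in the control samples. Its difference of 0.16 (SE 0.069, limma adjusted p = 0.363) passed the unadjusted threshold with no overlap of the groups. It did not pass without SNI sample 2 (0.14), SNI sample 3 (0.15), control sample 1 (0.18) or control sample 3 (0.11), nor by the methods' t-test or with the covariate. In the fit over probe sets, the only probe set of Sdc4 did not pass either (limma unadjusted p = 0.057). Egfr, the receptor of epidermal growth factor, was at 0.018 over 3 probe sets (−0.15 to 0.19). Enzymes that set the modifications of tRNA, on which cleavage by angiogenin depends, were in the same list. Of the tRNA methyltransferases that protect against cleavage, Nsun2 was at −0.12 (−0.25 to 0.016, adjusted p = 0.439) with no overlap of the groups and Trdmt1 at −0.10 (−0.37 to 0.17) with overlap. Adat3, part of a tRNA deaminase, was higher by 0.21 (SE 0.056, adjusted p = 0.217) and lay between 0.074 and 0.086 in the SNI samples and between −0.20 and −0.074 in the control samples. Of 18 measured genes of this list, 2 passed as higher, Adat3 and Sdc4, and 0 as lower, with a median of −0.044. The groups did not overlap for 2 as higher and 6 as lower, against 6.39% and 13.7% of all genes. By the methods' t-test 1 passed as higher and 4 as lower, and with the probe set of the smallest spread 3 and 2. Without control sample 2 the counts of genes past the threshold were 4 and 4. With the covariate they were 1 and 1, Trdmt1 being at −0.51 (SE 0.21) and Egfr at −0.25 (SE 0.13).

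Stress granules are the bodies in which cells store mRNAs while translation is held back, a process that tRNA fragments made by angiogenin promote. Of 37 measured genes of stress granules and eIF2 kinases, 2 passed as higher and 3 as lower, with a median of −0.025. Matr3, an RNA-binding nuclear protein, was at 0.17 (SE 0.060), but its 2 probe sets lay apart at −0.069 and 0.40, and with the covariate it was at 0.0094 (SE 0.12). Caprin1, a granule protein, was at −0.23 (SE 0.087) with overlapping groups, and G3bp2, a core granule protein, at −0.16 (SE 0.061). The probe sets of these genes also lay apart, between −0.40 and −0.081 for Caprin1 and at −0.25 and −0.062 for G3bp2. The other genes past the threshold were Ppp1r15a, an eIF2 phosphatase subunit, at 0.23 and Eif4a1, an RNA helicase, at −0.14. The limma adjusted p of these 5 lay between 0.305 and 0.351. With the covariate Caprin1 was at −0.40 (SE 0.19), and 1 gene passed as higher and 2 as lower. The counts were not stable, since without SNI sample 3 none of its genes passed and 8 passed as lower without control sample 2.

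For ribosomal RNA transcription, the nuclear process that angiogenin stimulates, 35 genes of RNA polymerase I and the nucleolus were measured. Of these 1 (2.86%) passed as higher and 6 (17.1%) as lower, and the median was −0.063. Dkc1, the RNA pseudouridine synthase, was the higher one, by 0.27 (SE 0.062, limma adjusted p = 0.200). The polymerase subunits Polr1c and Polr1b were at −0.18 (SE 0.051) and −0.27 (SE 0.080), without overlap of the groups, and neither passed adjustment. Leaving out either SNI sample 1 or control sample 3 left 2 genes of the list as lower. With the covariate 0 passed as higher and 2 as lower, and Dkc1 was at 0.080 (SE 0.12).

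Listed genes around the members on the chromosome were compared as well. They were not all close by, and reached up to 31 protein-coding genes after Rnase4 and 40 after Rnh1. Around Rnase4 and Ang, 20 listed genes were measured, of which 3 passed as higher and 4 as lower, with a median difference of −0.0064. The nearest with a probe set were Rnase12, 2 protein-coding genes of the annotation before Ang, at 0.017, and Rnase6, 3 after Rnase4, at 0.070. Neither passed, and the genes of this list named next lay further off. Osgep, which makes a tRNA modification, was at 0.25, 0.11 and 0.23 in the SNI samples and −0.11, −0.16 and −0.57 in the control samples, higher by 0.48 (SE 0.12, limma adjusted p = 0.216). Pnp, purine nucleoside phosphorylase, was at 0.055, 0.098 and 0.10 in the SNI samples and −0.078, −0.090 and −0.30 in the control samples, higher by 0.24 (SE 0.071, adjusted p = 0.238). Its probe sets were at 0.35 and 0.14. For Osgep and Pnp, as for Rnase4, control sample 3 was the lowest of the 6. With the hybridization controls as a covariate every call of this list was lost (0 higher and 0 lower), with Osgep at 0.075 (SE 0.22) and Pnp at 0.13 (SE 0.16). Apex1, the DNA repair enzyme between Osgep and Pnp, was at −0.15, and Zfp219, further on, at 0.14. Mettl3, the mRNA methyltransferase, was lower by 0.18 on the log2 scale (−0.18, SE 0.054, adjusted p = 0.246), and Hnrnpc and Supt16h were at −0.20 and −0.14. Without SNI sample 3 only 1 gene of this list passed as lower. The difference of Rnase4 was larger than that of Ang and of each of the 20 listed genes. This is a description only, since this contrast brought Rnase4 in.

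**Figure D5:**
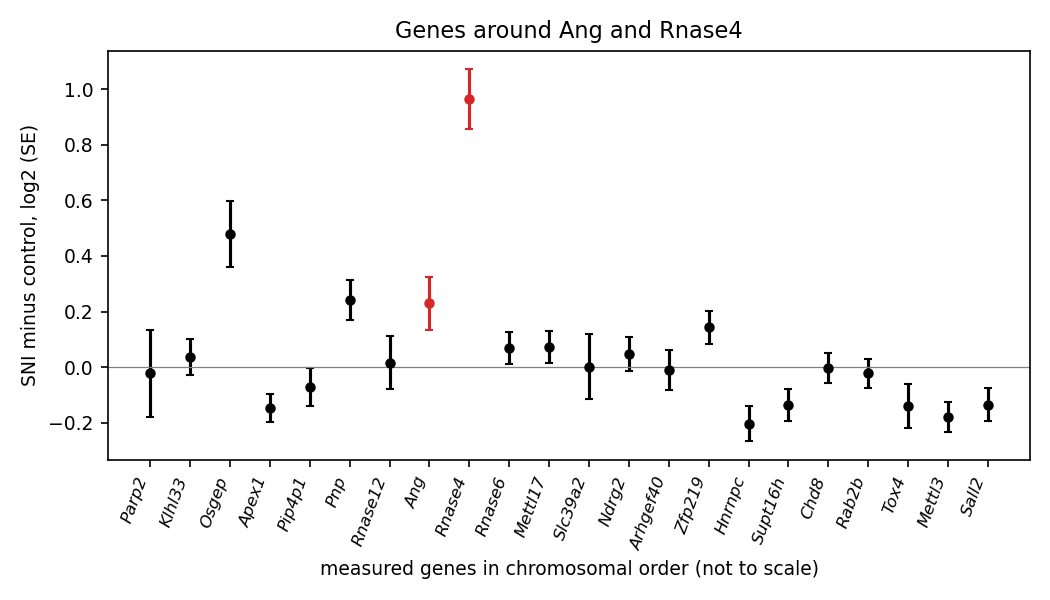
SNI minus control difference on the log2 scale with its SE (y axis) for the measured genes of the list around Ang and Rnase4, in chromosomal order and not to scale (x axis), with Ang and Rnase4 in red. Rnase4 is at 0.96, Osgep at 0.48, and the genes after Rnase4 lie between −0.20 and 0.14.

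Around Rnh1, 33 genes were measured, with 1 higher, 1 lower and a median of −0.015. Taldo1, an enzyme of the pentose phosphate pathway, was at −0.22 (SE 0.055, limma adjusted p = 0.216) and Cimap1a, a sperm tail protein, at 0.17 (SE 0.059, adjusted p = 0.291). Pnpla2, a triglyceride lipase, was at 0.16 (SE 0.073) and did not pass. Without control sample 2, 3 genes passed as higher, and without control sample 1, 4 as lower.

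Growth factors of blood vessels and their receptors, the process angiogenin is named for, were listed too. Of 37 measured, 7 passed as higher (18.9%) and 0 as lower, with a median of 0.037 and a list mean between 0.0074 and 0.047 in the SNI samples and between −0.035 and −0.0028 in the control samples. Angptl4, a secreted inhibitor of lipoprotein lipase, was at 0.10, 0.16 and 0.48 in the SNI samples and between −0.25 and −0.10 in the control samples, higher by 0.43 (SE 0.10, limma adjusted p = 0.203). Notch1, a receptor of vessel sprouting among other processes, was higher by 0.19 on both of its probe sets together (SE 0.053, adjusted p = 0.230). With the covariate 1 of the 37 passed as higher and Notch1 was at 0.097 (SE 0.12), and 4 did without SNI sample 1 or without SNI sample 3.

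Markers of cell types were counted in the same way. Of 26 measured microglia markers, 12 passed as higher (46.2%) and 0 as lower, with a median of 0.17. Their mean lay between −0.013 and 0.16 in the SNI samples and between −0.11 and −0.057 in the control samples. The complement genes C1qa and C1qb were at 0.36 (SE 0.067, limma adjusted p = 0.164) and 0.26 (SE 0.061, adjusted p = 0.200). Under the covariate 4 passed as higher and 2 as lower, with C1qa at 0.16 (SE 0.13) and C1qb at 0.26 (SE 0.14). Without SNI sample 1, 7 passed as higher. Without control sample 1, 1 marker passed as lower. Of 18 astrocyte markers 2 passed as higher (Ntsr2 and Aldoc) and of 17 endothelial markers 3 (Cldn5, Slco1a4 and Slc2a1), none as lower, with list means of 0.014 to 0.030 and 0.0076 to 0.041 in the SNI samples and −0.19 to 0.025 and −0.11 to −0.018 in the control samples. The astrocyte means thus overlapped between the groups, and 0 astrocyte markers passed by the methods' t-test or without any 1 of the SNI samples. Without control sample 1, 6 of them passed as higher, as did 6 with the probe set of the smallest spread. The groups did not overlap for 4 of the 18 astrocyte markers, all higher, against 6.39% of all genes. In the fit over probe sets the only probe set of Aldoc did not pass (limma unadjusted p = 0.053). With the covariate 1 astrocyte marker passed in each direction and 1 endothelial marker as higher. Of 24 neuronal markers 5 passed as higher (20.8%), Camk2a (0.29) among them, and 3 as lower (12.5%), Syt1 (−0.38) among them. Their median was −0.077, and the groups did not overlap for 5 higher and 7 lower. With control sample 2 left out, 10 passed as lower, and with the covariate none passed in either direction. Of 17 markers of oligodendrocytes and their precursors 2 were higher (Cspg4 and Pdgfra) and Cldn11 lower, with a median of −0.052. There were 6 lower without control sample 2 and none in either direction with the covariate. Of 20 of mural cells, fibroblasts and meninges 1 was higher (Cspg4), and Lum was at −0.33 without passing, with 5 higher without control sample 3 and 0 with the covariate. Of 17 of choroid plexus and blood 2 were higher, the red cell genes Hbb (0.49) and Alas2 (0.44), and 1 lower (Ms4a1). With the covariate Hbb was at 1.15 (SE 0.23) and Alas2 at 1.13 (SE 0.21). By the methods' t-test no gene of this list passed. Without a covariate the difference of Rnase4 (0.96) exceeded that of every measured marker, while with it Rnase4 (0.62) lay under Hbb and Alas2. The covariate separates the groups, so the differences fitted with it and their order are uncertain. Rnase4 was taken up because of this contrast, so its place above the markers is a description only. The centred values do not show which of these markers are at background, and the part of each cell type in the Rnase4 difference was not tested.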

How the data were processed

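RNA of the contralateral PL (3 SNI samples, 3 controls) was measured on Affymetrix GeneChip rat genome arrays. The authors processed the signals by RMA, with quantile normalization, to log2 values. For software, the version is not given in the sources used here. The deposited log2 values are also centred on each probe set's median over the 6 samples (0 within 4.78e-07). Of 31099 probe sets, 57 array controls were left out, and 20826 carried 1 symbol, 436 several and 9780 none. Groups came from the sample labels.

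Differences were fitted with lmFit and eBayes (R 4.3.3, limma 3.58.1), without covariates, p-values being adjusted (Benjamini-Hochberg) across 31042 probe sets or 14217 genes (the mean of a gene's probe sets), and 95% confidence intervals for genes that are no members. Precision is limited by the few arrays, among other things, and with 3 samples a group no exact permutation test could reach a p under 0.1. The members and the 15 gene lists (444 entries) were chosen with earlier results of these data known. Named were every member probe set, the 2 or 3 listed genes with the smallest p, 5 fixed genes and the 5 most similar probe sets by either measure, against the mean of both Rnase4 probe sets, since the design had foreseen 1; other names were chosen after their values were seen. Start regions and motif matches came from RefSeq (GRCr8; all 3 members matched). limma was tested on simulated data. Alternatives were quantile normalization repeated, medians aligned, the methods' t-test, robust variances, a replicate block, the hybridization controls as a covariate, other thresholds, another summary of probe sets and each sample left out. A filter on low values could not be applied to centred values. No column held another sample's values. Plots used Python 3.11.15 and matplotlib 3.10.9.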

Additional observations from a re-analysis of the deposited data

How the results depend on the processing

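The differences of Rnase4 and Ang kept their sign under all alternatives run, and that of Rnh1 changed sign without control sample 1. Rnase4 moved by more than the spread between samples only with the hybridization controls as a covariate (0.62), and lay between 0.84 and 1.05 with 1 sample left out, as Ang did between 0.18 and 0.32 and Rnh1 between −0.093 and 0.012. The 10 probe sets past an adjusted p of 0.05 became 66 with quantile normalization repeated, 0 by the methods' t-test, 214 at an adjusted p under 0.10 and 0 to 35 with 1 sample left out (0 without SNI sample 3, 1 without SNI sample 2 or control sample 3, 35 without control sample 2). The 4055 past an unadjusted p of 0.05 became 2660 with the covariate, 1414 at an unadjusted p under 0.01 and 2644 (without SNI sample 3) to 6630 (without control sample 2) with 1 sample left out. Over the 8 lists of pathways and neighbours, 18 genes passed as higher and 24 as lower; with the covariate 4 and 9 did, and with 1 sample left out 11 to 25 and 13 to 42, the fewest without SNI sample 3 and the most without control sample 2. For the 36 genes chosen by the naming rule, under 13 alternatives, 384 values kept sign and side of the unadjusted threshold, 63 fell short of it, 8 passed it and 13 changed sign. The sign changes were those of Egfr, Trdmt1, Rnase1l2, Rnase12 and Matr3. With 1 sample left out, Egfr ranged from −0.047 to 0.073, Trdmt1 from −0.23 to 0.011, Rnase1l2 from −0.10 to 0.071 and Rnase12 from −0.069 to 0.092. With the covariate Egfr was at −0.25, Rnase1l2 at 0.32 and Rnase12 at −0.061. Without SNI sample 1 they were at −0.015, 0.021 and −0.069. Without control sample 1 Trdmt1 was at 0.011 and Rnase12 at −0.022, without control sample 2 Rnase1l2 at 0.071, and without control sample 3 Egfr at −0.047 and Rnase12 at −0.020. With the probe set of the smallest spread in place of the mean, Egfr was at −0.035 and Matr3 at −0.069. The cause of these moves was not tested. Same-numbered samples did not deviate together (correlations of 0.0085, −0.0098 and −0.069) and were not taken as pairs. With the replicate number as a block, 9 probe sets passed an adjusted p of 0.05 and 3556 an unadjusted p of 0.05, and 16 listed genes passed as higher and 17 as lower. Centred values give no signal over background, so probe sets near background could not be left out.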
